A study of Sus scrofa with 24 samples.

Results

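The nuclear genes of the mitochondrial respiratory chain were compared between 4 tissues of healthy pigs (Sus scrofa). Members were chosen by name. They are the genes whose symbol on the array, in capitals, begins with NDUFA, NDUFB, NDUFC, NDUFS or NDUFV, with UQCR, with ATP5, or with COX4 to COX8, and 11 genes that the array spells with lower-case letters are not among them. These names covered 165 of 60305 probes and 65 of 16107 named genes: 27 genes of complex I, 7 of complex III, 13 of complex IV, 12 of complex V, and 6 assembly factors or relatives of the subunits. Each gene is represented by its brightest probe, and 63 of the 65 could be tested.

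The animals were 6 crossbred piglets weaned at 28 days and killed at 10 weeks of age after free access to feed, with no other treatment named in the labels. Liver, spleen, a piece of jejunum without a Peyer's patch (called Jejunum) and a piece of jejunum with one (called Peyer) were taken from each animal, which gave 24 one-colour Agilent arrays and n = 6 per tissue. A Peyer's patch is a cluster of lymphoid follicles in the gut wall, and the pieces are whole tissue, so fewer cells of a type and less RNA per cell cannot be told apart. A level is a log2 signal minus the 75th percentile of its array, and a difference of 1 is 2-fold. A member was called where limma gave a Benjamini-Hochberg adjusted p under 0.05 over all probes.

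The respiratory chain passes electrons from NADH and succinate to oxygen and pumps protons across the inner mitochondrial membrane, and ATP synthase uses the return of the protons to make ATP. Complex I takes electrons from NADH, complex III passes them from ubiquinol to cytochrome c, complex IV hands them to oxygen, and complex V is the ATP synthase. Most subunits are encoded in the nucleus and imported, whereas the core membrane subunits are encoded in mitochondrial DNA. Several complex IV and V subunits come in isoforms from separate genes that are used in different tissues.

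The tissues carried the markers of their labels. Hepatocyte genes averaged 8.75 ± 0.083 (SD, n = 6) in Liver and -2.01 ± 1.59 in Spleen, enterocyte genes averaged 6.55 ± 0.2 in Jejunum, and B cell genes averaged 0.66 ± 0.31 in Spleen. The Peyer array of animal 71 stood apart, with a B cell mean of -2.10 against 1.54 to 2.07 on the other Peyer arrays and an enterocyte mean of 6.57 against 4.74 to 5.32. The Spleen array of animal 73 had an enterocyte mean of -1.48 against -5.29 to -4.33 on the other Spleen arrays, and that of animal 68 a hepatocyte mean of 0.29 against -3.85 to -1.0. Liver and Spleen shared slides 1 to 3 and Jejunum and Peyer shared slides 4 to 6, each slide with 2 animals, so Spleen can be set against Liver and Peyer against Jejunum within slides. In the other 4 comparisons slide and tissue cannot be told apart. Slide 6, with the gut arrays of animals 73 and 75, was scanned on a different day from the other slides. The 75th percentile of the signal lay between 275.4 and 2261.9, and 60.4% to 75.6% of probes were well above background.

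Spleen stood lowest for most of the chain. Its mean was the lowest of the 4 tissues in 48 of the 63 members, against 22.2% of the 13270 genes tested, and the highest in 0, against 31.1% of genes. Jejunum was highest in 39 members, against 20.9% of genes, Liver in 21, against 33.4%, and Peyer in 3. In 16 members all 6 Spleen arrays lay below all 18 other arrays, as they did in 6.38% of genes. These 16 were 9 complex I genes (NDUFA2, NDUFA8, NDUFA9, NDUFA11, NDUFAB1, NDUFB2, NDUFB5, NDUFB11 and NDUFS4), UQCRB and UQCRC1 of complex III, COX5A and COX6A1 of complex IV, and ATP5A1, ATP5F1 and ATP5G3 of complex V. Under quantile normalization Spleen was lowest in 30 members and Liver highest in 7, and with the authors' deposited values in 47 and 12. Except for Spleen against Liver and Peyer against Jejunum, these rankings cross slides, where slide and tissue cannot be told apart.

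By complex, Spleen was lowest in 21 of 27 members of complex I, 6 of 7 of complex III, 8 of 12 of complex IV and 11 of 12 of complex V, but in 2 of the 5 assembly factors and relatives. The mean level over all 63 members was 3.92 ± 0.037 (SD, n = 6) in Jejunum, 3.76 ± 0.2 in Liver, 3.59 ± 0.14 in Peyer and 3.13 ± 0.12 in Spleen. The 6 Spleen arrays, from 2.90 to 3.23, lay below every array of the other tissues, while Liver, from 3.44 to 3.99, overlapped both gut tissues. The Jejunum arrays, from 3.86 to 3.96, lay above all Peyer arrays, from 3.47 to 3.84.

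**Figure D1:**
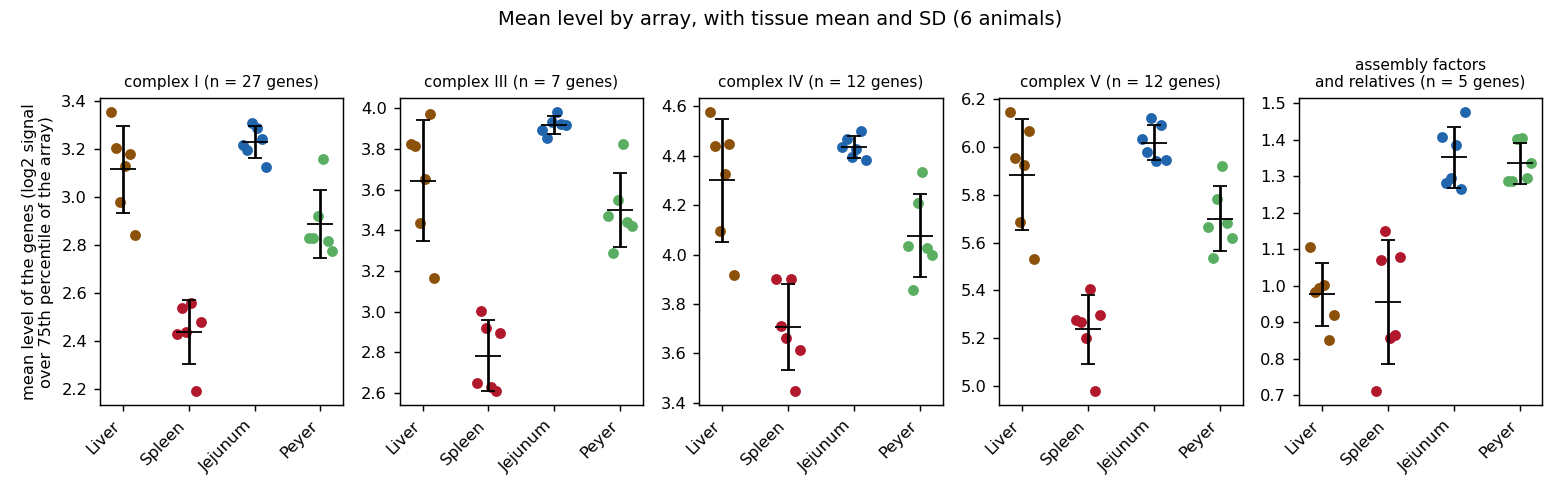
Mean level (log2 signal over the 75th percentile of the array) of the genes of each complex on each of the 24 arrays, by tissue, with the tissue mean and SD as bars (n = 6 animals). Each vertical axis has its own range. Spleen, with a mean of 2.44 for complex I and 5.24 for complex V, has the lowest mean in the panels of the 4 complexes. Its arrays overlap Peyer in complex IV and Liver among the assembly factors and relatives.

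**Figure D2:**
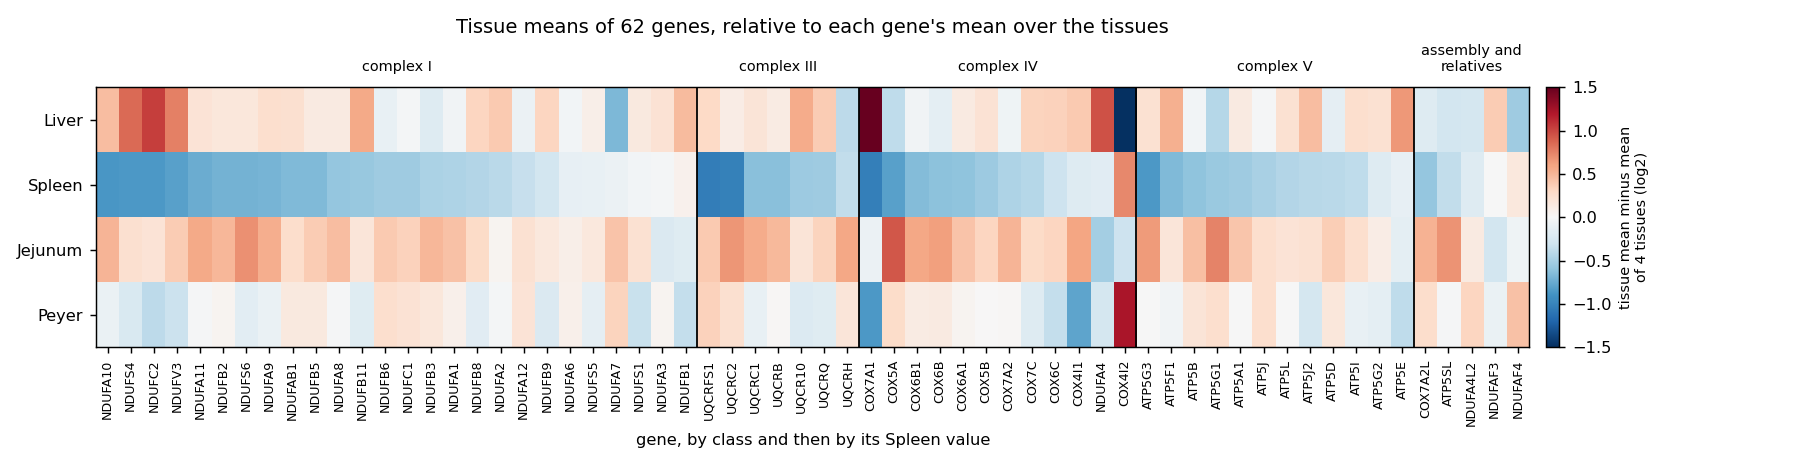
Tissue mean of each of 62 genes minus that gene's mean over the 4 tissues (log2, colour scale from -1.5 to 1.5, values beyond it in the end colours), grouped by complex and ordered by the Spleen value. Spleen is the lowest tissue in 48 columns and the highest in 0, and COX7A1, NDUFA4 and COX4I2 depart from the other complex IV genes.

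Spleen, a lymphoid organ, and Liver, a metabolic one, were compared within slides. Of 63 members 49 were lower in Spleen and 3 higher, where 31.5% of all genes tested were lower and 38.2% higher. The lower calls were seen in 6 of 6 animals for 42 members. In 32 members the 6 arrays of each tissue did not overlap. That count takes either direction and includes COX4I2 and NDUFAF4, which were higher in Spleen. The shares of all genes for these counts were not computed, so they only describe the members. The median difference over members was -0.65, against 0.09 over all genes. Without animal 73 the median was -0.56 with 41 members lower, and without animal 68 it was -0.63 with 45 lower. At least 2-fold lower were 12 members (18% of genes) and at least 2-fold higher was 1 (20.1% of genes).

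Complex I had 20 of 27 members lower in Spleen than in Liver, complex III 6 of 7, complex IV 11 of 12, complex V 10 of 12, and the assembly factors and relatives 2 of 5. The lowest of complex I was NDUFC2, a subunit of the membrane arm, and the next was NDUFS4, an accessory subunit near the NADH-oxidising module. NDUFC2 lay between 5.56 and 6.63 in Liver (median 6.03), 3.89 and 4.46 in Spleen (4.18), 4.92 and 5.49 in Jejunum (5.29), and 4.18 and 5.06 in Peyer (4.61). No Spleen array reached the lowest Liver or Jejunum array, and Spleen overlapped Peyer. Spleen minus Liver was -1.90 ± 0.16 (SE, limma adjusted p = 2.8e-10).

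NDUFS4 lay between 3.67 and 4.69 in Liver (median 4.02), 2.13 and 2.59 in Spleen (2.35), 3.32 and 3.63 in Jejunum (3.41), and 2.84 and 3.21 in Peyer (2.95). Its 4 tissues did not overlap, in the order Liver, Jejunum, Peyer, Spleen. Spleen minus Liver was -1.71 ± 0.13 (SE, limma adjusted p = 7.9e-11). Against this run NDUFA7, another complex I subunit, was higher in Spleen by 0.58 ± 0.12 (adjusted p = 0.00024) in 5 of 6 animals. Complex I members without a call included NDUFA3, NDUFA6, NDUFA12, NDUFS1 and NDUFS5.

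In complex III the lowest member was UQCRFS1, the Rieske iron-sulfur protein, at -1.33 ± 0.31 (adjusted p = 0.00065). Its probe was dim, between -5.12 and -3.51 in Liver (median -3.97), -6.41 and -4.55 in Spleen (-5.13), -4.26 and -3.60 in Jejunum (-4.04), and -4.89 and -3.57 in Peyer (-3.87). Spleen overlapped Liver and Peyer, and the probe was well above background on 4 of 6 Spleen and 5 of 6 Liver arrays. UQCRC2, a core protein of the complex, lay between 1.71 and 2.39 in Liver (median 2.18), 0.36 and 1.71 in Spleen (0.97), 2.49 and 2.94 in Jejunum (2.67), and 2.14 and 2.40 in Peyer (2.24). Spleen and Liver only met at their edges, and Jejunum lay above all other arrays of this gene. The difference between Spleen and Liver was -1.13 ± 0.19 (adjusted p = 1.1e-05). UQCRH, the hinge protein at the cytochrome c docking site, differed by 0.03 ± 0.11 (adjusted p = 0.85) and was the one complex III member with no call. The UQCRFS1 and UQCRH probes are also annotated to a near-identical copy, so their values here and below are uncertain.

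Complex V, the ATP synthase, was led by ATP5F1, the b subunit of the peripheral stalk, at -1.19 ± 0.093 (adjusted p = 6.3e-11). The catalytic subunits had smaller differences, ATP5A1 at -0.67 ± 0.11 (adjusted p = 1.5e-05) and ATP5B at -0.57 ± 0.16 (adjusted p = 0.0025). ATP5G1, at -0.12 ± 0.15, and ATP5D, at -0.27 ± 0.14, had no call. Among the assembly factors NDUFAF4 was higher in Spleen by 0.68 ± 0.15 (adjusted p = 0.00038) and NDUFAF3 was lower at -0.39 ± 0.1 (adjusted p = 0.0015). Both help to assemble complex I.

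Within single slides, with 2 animals each, the median difference of the members between Spleen and Liver was -0.79, -0.50 and -0.67. The size of this comparison depends on the scaling. Quantile normalization gave 10 members higher and 22 lower with a median of -0.12, and the authors' deposited values, also quantile-normalized, gave 5 higher and 33 lower with a median of -0.32. Relative to the median of all genes the members stood at -0.74 with the 75th percentile scaling, -0.29 after quantile normalization and -0.43 in the authors' values. Hepatocyte markers were lower in Spleen in 9 of 9 and B cell markers higher in 5 of 5. Macrophage markers were higher in 4 of 6 and lower in 1 (range of means 3.02 to 3.57 in Spleen and 2.28 to 2.99 in Liver). Smooth muscle markers were higher in 7 of 8 (range of means 3.68 to 4.67 in Spleen and -0.26 to 0.66 in Liver), erythroid markers higher in 2 of 4 and lower in 2, and enterocyte markers lower in 2 of 7. The part of these lists in the result was not tested.

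**Figure D3:**
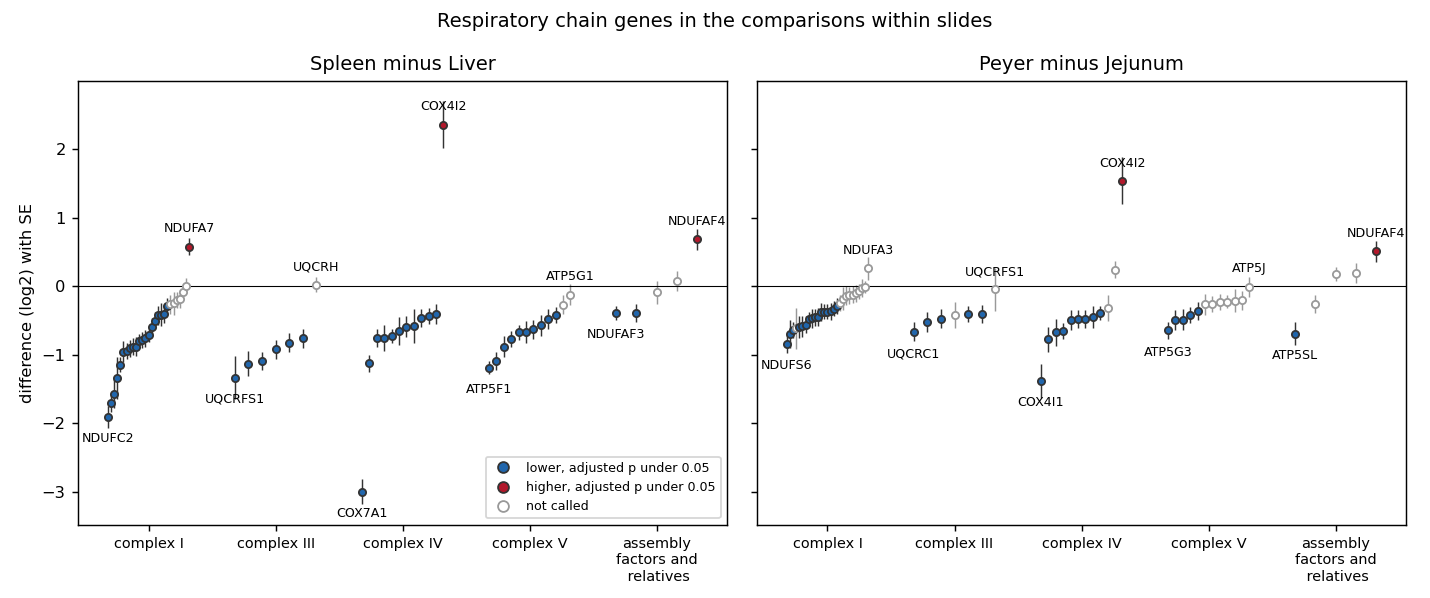
Difference of each member with its SE (log2, limma), by class, for Spleen minus Liver on the left and Peyer minus Jejunum on the right. Filled points have an adjusted p under 0.05, blue lower and red higher, and the lowest and highest gene of each class are named. Most points lie below 0 in both panels (57 of 63 in each), with COX7A1 at -3.00 and COX4I2 at 2.36 as the ends of the left panel.

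Complex IV held the widest range, and its ends were tissue isoforms. COX7A1 is known as the heart and muscle form of subunit VIIa and COX7A2 as the form found in most tissues. COX4I2 is the form of subunit IV known from lung and from low oxygen, and COX4I1 is the common form. NDUFA4 was first counted in complex I and is a complex IV subunit, and NDUFA4L2 is its hypoxia-induced relative. The probes have different sequences. Over their 60 bases COX7A1 and COX7A2 shared no run longer than 7 bases, and COX4I1 and COX4I2 none longer than 5. NDUFA4 and NDUFA4L2 shared none longer than 7. This compares the probes with each other only, and binding of a probe to the transcript of the other form was not tested. The first 30 bases of each, as the scanner files list them, are shown because the isoform differences rest on these probes.
COX7A1: tgtaccgagtgactatgactctgtgtctgg
COX7A2: gttccattcagctctctgtggaccagtaat
COX4I1: agtcctcactcttcacgacgcttccatgtg
COX4I2: ttctttggattcacaggtctgatgatttgg
NDUFA4: aatgaaggtcttccagaagccatccgcaca
NDUFA4L2: cctgctcccctctgtcccccgggatcaaac

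COX7A1 lay between 5.71 and 6.47 in Liver (median 6.18), 2.77 and 3.82 in Spleen (2.97), 3.78 and 4.20 in Jejunum (4.04), and 2.93 and 3.96 in Peyer (3.09). Liver stood far above all other arrays, and the other 3 tissues met or overlapped. Spleen minus Liver was -3.00 ± 0.18 (SE, limma adjusted p = 7.9e-13), and Peyer minus Jejunum was -0.77 ± 0.18 (adjusted p = 0.0023). The other 2 COX7A1 probes gave -3.02 and -3.04 between Spleen and Liver. Jejunum minus Liver was -2.07 ± 0.18 (adjusted p = 8.3e-10), and -0.63 in the authors' values.

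COX7A2 followed the rest of the chain instead. It lay between 5.27 and 6.27 in Liver (median 5.79), 4.96 and 5.71 in Spleen (5.44), 6.28 and 6.46 in Jejunum (6.36), and 5.69 and 6.22 in Peyer (5.81). Jejunum was above all other arrays, and Liver, Spleen and Peyer overlapped. Spleen minus Liver was -0.41 ± 0.14 (adjusted p = 0.015), which turned to 0.36 (adjusted p = 0.0064) under quantile normalization, had no call without animal 73 (-0.23, adjusted p = 0.16), and was 0.021 in the authors' values. Jejunum was higher than Liver by 0.57 ± 0.14 (adjusted p = 0.0015).

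The subunit IV genes differed in opposite directions. COX4I2 lay between -4.61 and -2.56 in Liver (median -3.40), -1.98 and -0.11 in Spleen (-1.02), -2.44 and -1.88 in Jejunum (-2.13), and -1.74 and 0.26 in Peyer (-0.59). Liver lay below all other arrays and was well above background on 5 of 6, and Spleen overlapped Jejunum and Peyer. COX4I2 was higher in Spleen than in Liver by 2.36 ± 0.34 (adjusted p = 1.9e-06) and higher in Peyer than in Jejunum by 1.53 ± 0.34 (adjusted p = 0.0014).

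COX4I1 lay between 0.40 and 0.77 in Liver (median 0.68), -0.33 and 0.46 in Spleen (0.12), 0.34 and 1.25 in Jejunum (0.85), and -1.91 and 0.20 in Peyer (-0.44). All Peyer arrays lay below all Jejunum arrays, and the lowest was that of animal 69. COX4I1 was lower in Peyer than in Jejunum at -1.38 ± 0.25 (adjusted p = 0.00026), the lowest difference of all members in that comparison. Spleen minus Liver was -0.58 ± 0.25 (adjusted p = 0.044), a call that 5 of the 6 fits with 1 animal left out did not keep (lowest adjusted p there 0.051). COX4I1 has 1 probe, with tissue means from -0.53 in Peyer to 0.85 in Jejunum. Those of COX6A1 ran from 6.35 in Spleen to 7.38 in Jejunum. How well the COX4I1 probe reads its gene was not tested.

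NDUFA4 lay between 6.44 and 7.23 in Liver (median 6.83), 5.36 and 5.90 in Spleen (5.71), 5.20 and 5.50 in Jejunum (5.32), and 5.32 and 5.73 in Peyer (5.66). Liver lay above all other arrays and the other tissues overlapped. Spleen minus Liver was -1.12 ± 0.12 (adjusted p = 2.6e-08), and the gene's 6 probes ranged from -1.17 to -1.03. Jejunum minus Liver was -1.46 ± 0.12 (adjusted p = 3.4e-10), but -0.21 (adjusted p = 0.11) in the authors' values. NDUFA4L2 lay between 0.60 and 1.34 in Liver (median 0.78), 0.50 and 1.48 in Spleen (0.90), 1.07 and 1.58 in Jejunum (1.24), and 1.25 and 1.64 in Peyer (1.44). All tissues overlapped, and Spleen minus Liver was 0.07 ± 0.15. Its next probe gave 2.0 for the same comparison (adjusted p = 3.7e-07), so its size depends on the probe.

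**Figure D4:**
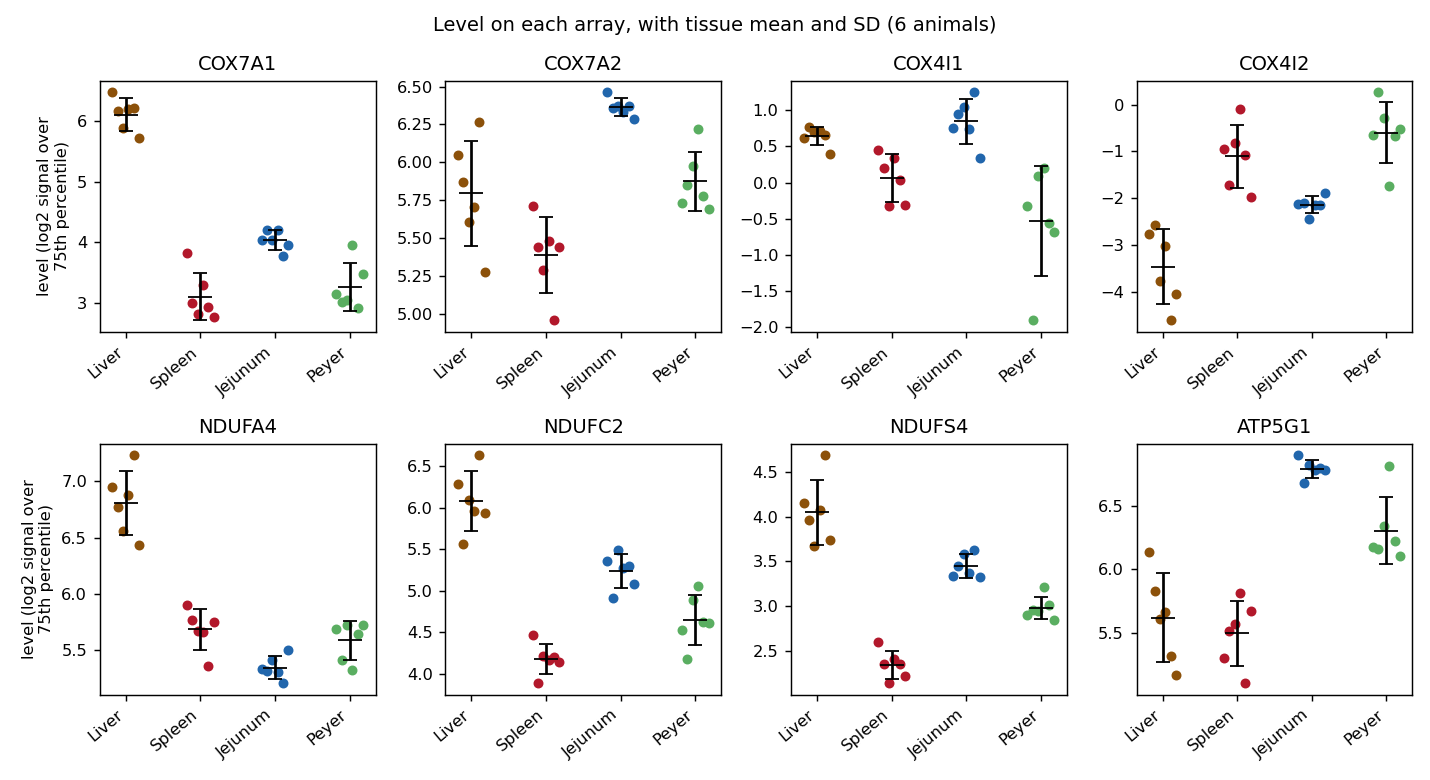
Level (log2 signal over the 75th percentile of the array) of 8 genes on each array, by tissue, with the tissue mean and SD as bars (n = 6 animals). Each panel has its own vertical range. COX7A1 and NDUFA4 stand highest in Liver, COX4I2 lowest in Liver, and COX7A2 and ATP5G1 highest in Jejunum, where ATP5G1 had a median of 6.79.

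COX6A1 and COX6B1 are the common forms of subunits VIa and VIb. COX6A1 lay between 6.91 and 7.43 in Liver (median 7.06), 6.13 and 6.46 in Spleen (6.38), 7.31 and 7.47 in Jejunum (7.39), and 6.80 and 7.30 in Peyer (6.98). Spleen was below all other arrays, and Spleen minus Liver was -0.73 ± 0.1 (adjusted p = 1.1e-06), or -0.07 (adjusted p = 0.49) under quantile normalization. COX6B1 lay between 4.94 and 5.93 in Liver (median 5.45), 4.41 and 5.10 in Spleen (4.94), 5.81 and 6.16 in Jejunum (6.11), and 5.28 and 6.12 in Peyer (5.57). Spleen overlapped Liver, and Spleen minus Liver was -0.59 ± 0.16 (adjusted p = 0.0019), or 0.14 (adjusted p = 0.33) under quantile normalization. The array also lists COX6B, an older name that may be the same gene. Both names stay in the counts and means of complex IV, so the same gene may enter them more than once.

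ATP5G1, ATP5G2 and ATP5G3 encode the same mature c subunit, whose ring turns in ATP synthase, with different import peptides. Their probes shared runs of at most 6 bases with each other, and binding of a probe to the other transcripts was not tested. The first 30 bases of each probe are given because the 3 genes ordered the tissues differently.
ATP5G1: tttgatggtcgccttccttatcctcttcgc
ATP5G2: gaacgtggttggctcagggtttgacagagg
ATP5G3: actccgaaaactgtagtactggtgtcatgg

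ATP5G1 lay between 5.17 and 6.14 in Liver (median 5.63), 5.10 and 5.81 in Spleen (5.54), 6.68 and 6.90 in Jejunum (6.79), and 6.11 and 6.81 in Peyer (6.20). Liver and Spleen overlapped, both gut tissues stood above Spleen, and the highest Peyer array was that of animal 71. Jejunum minus Liver was 1.17 ± 0.15 (adjusted p = 4.4e-07). Peyer minus Jejunum was -0.49 ± 0.15 (adjusted p = 0.014), a call lost under median centring (-0.31, adjusted p = 0.144) and quantile normalization (-0.28, adjusted p = 0.067).

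ATP5G3 lay between 6.09 and 6.81 in Liver (median 6.69), 5.34 and 5.68 in Spleen (5.44), 6.79 and 7.13 in Jejunum (6.97), and 5.92 and 6.54 in Peyer (6.41). Spleen was below all other arrays, and Spleen minus Liver was -1.09 ± 0.13 (adjusted p = 5.2e-08). ATP5G2 lay between 6.17 and 6.76 in Liver (median 6.54), 5.89 and 6.47 in Spleen (5.95), 6.23 and 6.63 in Jejunum (6.33), and 5.90 and 6.28 in Peyer (6.14). Its tissues overlapped, and Spleen minus Liver was -0.42 ± 0.12 (adjusted p = 0.0034), or 0.29 (adjusted p = 0.012) under quantile normalization.

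Peyer against Jejunum sets pieces of jejunum with and without a Peyer's patch side by side within slides. The pieces also differed in smooth muscle and enterocyte markers, as given below. Of 63 members 36 were lower in Peyer and 2 higher, where 25.6% of all genes tested were lower and 18.8% higher. The median difference was -0.38, against -0.13 over all genes, and the lower calls were seen in 6 of 6 animals for 32 members. How many of all genes were lower in 6 of 6 animals was not computed. The differences were smaller than between Spleen and Liver: 1 member, COX4I1, was at least 2-fold lower (7.68% of genes) and 1, COX4I2, at least 2-fold higher (5.6% of genes).

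Complex I had 16 of 27 members lower in Peyer, complex III 5 of 7, complex IV 9 of 12, complex V 5 of 12, and the assembly factors and relatives 1 of 5. NDUFS6, an accessory subunit of the NADH-oxidising module, was lowest of complex I at -0.84 ± 0.14 (adjusted p = 0.0001). UQCRC1, a core protein, was lowest of complex III at -0.66 ± 0.14 (adjusted p = 0.00082) and ATP5G3 lowest of complex V at -0.64 ± 0.13 (adjusted p = 0.00047). The highest members of these complexes had no call: NDUFA3 at 0.26 ± 0.17, UQCRFS1 at -0.05 ± 0.31 and ATP5J, a stalk subunit, at -0.01 ± 0.15. Of the last class NDUFAF4 was higher by 0.51 ± 0.15 (adjusted p = 0.011, 5 of 6 animals) and ATP5SL, a relative of a coupling factor, lower at -0.69 ± 0.16 (adjusted p = 0.0024).

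ATP5SL lay between -1.64 and -1.15 in Liver (median -1.39), -1.95 and -1.03 in Spleen (-1.42), -0.59 and -0.23 in Jejunum (-0.53), and -1.56 and -0.60 in Peyer (-1.19). Jejunum alone stood apart from the other tissues. COX7A2L, which helps to join complexes III and IV into supercomplexes, lay between 2.82 and 3.45 in Liver (median 3.16), 2.58 and 3.26 in Spleen (2.64), 3.70 and 3.99 in Jejunum (3.90), and 3.40 and 4.00 in Peyer (3.56). Both gut tissues stood above Spleen, and Peyer minus Jejunum was -0.26 ± 0.13 (adjusted p = 0.11).

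Centring the arrays on their medians moved the median of all genes between Peyer and Jejunum from -0.13 to 0.05. It left 11 members lower and 4 higher with a median of -0.20, while quantile normalization gave 22 lower and 3 higher. Relative to all genes the members stood at -0.25 with both the 75th percentile and the median-centred scaling. Within slides 4, 5 and 6 the median difference was -0.46, -0.23 and -0.41, and with 2 animals a slide the members lower were 0, 0 and 3. Slide 5 holds animal 71, and without its Peyer array the median was -0.45 with 38 members lower.

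The marker lists moved in the same comparison. B cell markers were higher in Peyer in 5 of 5 genes, enterocyte markers lower in 4 of 7 and smooth muscle markers lower in 8 of 8. Smooth muscle genes averaged 1.79 to 5.21 on the Peyer arrays and 3.88 to 5.28 on the Jejunum arrays, enterocyte genes 4.74 to 6.57 and 6.35 to 6.81. Along with the high enterocyte and low B cell mean of the Peyer array of animal 71, its mean over the 63 members was 3.84, against 3.47 to 3.66 on the other Peyer arrays. The part of these cell types in the members' differences was not tested.

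The remaining comparisons lie on different slides. In them the values of ATP5E, UQCRH and UQCRFS1 are uncertain, since their probes are also annotated to a near-identical copy. Peyer was above Spleen in 43 of 63 members and below it in 2, where 22.5% of all genes tested were higher and 33.4% lower, with a median of 0.53. At least 2-fold higher were 3 members (10.3% of genes) and at least 2-fold lower 0 (14.8% of genes). The highest members by class were NDUFAB1, the acyl carrier protein, at 0.81, UQCRFS1 at 1.38, COX5A, a subunit of complex IV, at 1.09, ATP5G3 at 0.85 and COX7A2L at 0.85, and each was called. UQCRFS1 turned to -0.22 under normexp, a model-based background correction. The lowest were NDUFB1, of the membrane arm of complex I, at -0.43 and COX4I1 at -0.60, both called, and ATP5E, the epsilon subunit of ATP synthase, at -0.25, NDUFAF3 at -0.10 and UQCR10, a small subunit of complex III, at 0.33. The lower calls numbered 0 after median centring, in a fit of these 12 arrays and without animal 68 or 75, and 1 without animal 69. UQCR10 was itself called higher, and all 7 complex III members were. With the authors' values 23 members were higher and 1 lower, with a median of 0.23.

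Spleen was below Jejunum in 54 of 63 members and above it in 3, where 26.7% of all genes tested were lower and 34.6% higher. The median was -0.91, and 24 members were at least 2-fold lower (15.2% of genes) and 1 at least 2-fold higher (14.7% of genes). The lowest by class were NDUFS6 at -1.39, UQCRC2 at -1.67, COX5A at -1.74, ATP5G3 at -1.49 and COX7A2L at -1.11. The 3 higher were COX4I2 at 1.03, NDUFA4 at 0.34 and NDUFAF3 at 0.27, and NDUFA4 turned to -0.56 (adjusted p = 8.3e-05) in the authors' values. NDUFB1 at 0.25 and ATP5E at 0.02, the highest of complexes I and V, had no call, and UQCR10, at -0.74, was the least reduced of complex III.

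COX5A lay between 4.32 and 4.69 in Liver (median 4.59), 4.05 and 4.21 in Spleen (4.13), 5.53 and 6.11 in Jejunum (5.85), and 4.91 and 5.60 in Peyer (5.25). Spleen was below all other arrays, Liver next, and the gut tissues above both with a small overlap between them. Jejunum minus Liver was 1.31 ± 0.11 (adjusted p = 5.7e-10).

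Jejunum and Liver were divided by member. Of 63, 31 were higher in Jejunum and 12 lower, where 31.7% of all genes tested were higher and 31.5% lower. The median was 0.27, with 5 members at least 2-fold higher (17% of genes) and 2 at least 2-fold lower (15.8% of genes). The highest of each class were COX4I2 at 1.33, ATP5G1 at 1.17, NDUFA7 at 1.1, UQCRH at 0.97 and ATP5SL at 0.95, and the lowest of each class were COX7A1 at -2.07, NDUFC2 at -0.84, ATP5E at -0.79, NDUFAF3 at -0.66 and UQCR10 at -0.36. NDUFA4, at -1.46, was the other member at least 2-fold lower. COX4I2 was -0.050 in the authors' values. Quantile normalization gave 44 higher and 7 lower, and the authors' values 18 higher and 2 lower. Set against the median of all genes, the members stood at 0.28 in the reported scaling. They stood at 0.43 after quantile normalization and 0.14 in the authors' values. Without animal 70, 20 were higher.

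Between Peyer and Liver the direction depended on the scaling. Of 63, 11 were higher in Peyer and 24 lower, where 35% of all genes tested were higher and 37.8% lower, with a median of -0.17. At least 2-fold higher were 2 (18.5% of genes) and at least 2-fold lower 7 (21.3% of genes). Median centring gave 19 higher and 19 lower, quantile normalization 31 higher and 9 lower with a median of 0.27, and background correction by normexp 17 higher and 24 lower. The shares of all genes under these settings were not computed. Median centring also moved the median of all genes, from -0.06 to 0.10. Set against that median, the members stood at -0.11 both before and after centring. They stood at 0.19 after quantile normalization, 0.16 after normexp and -0.15 in the authors' values. The ends were COX4I2 at 2.86 and COX7A1 at -2.84, NDUFA7 at 1.0 and NDUFC2 at -1.43, UQCRH at 0.57 and UQCR10 at -0.76, ATP5G1 at 0.68 and ATP5E at -1.02, and NDUFAF4 at 0.97 and NDUFAF3 at -0.49, each called.

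Members deviated together from array to array. After the tissue means were removed, the mean correlation between 2 members over the 24 arrays was 0.36, against 0.01 between genes in general, and by class it was 0.38 in complex I, 0.42 in complex III, 0.4 in complex IV, 0.5 in complex V and 0.04 in the assembly factors and relatives. The arrays share slides and scaling, so this is a description. The median residual SD of a member was 0.2, against 0.3 for all genes. Members are bright, with a mean level from 3.13 in Spleen to 3.92 in Jejunum over the 75th percentile. Neither the correlation nor the residual SD was set beside genes of like level. An effect of animal beside tissue was called in 1 of 63 members, NDUFV3 (limma F-test, adjusted p = 0.045), against 4.41% of genes, and 5 members had an unadjusted p under 0.05, against 18.7% of genes. The count was 0 after median centring, in the authors' values, without the Peyer array of animal 71, and without animal 69, 70, 73 or 75.

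Other mitochondrial lists were set beside the members. Their counts can be read against all genes tested, of which 31.5% were lower and 38.2% higher in Spleen than in Liver, and 25.6% lower and 18.8% higher in Peyer than in Jejunum. Complex II, which feeds electrons from succinate, had 3 of 3 genes lower in Spleen than in Liver (SDHB at -1.77 ± 0.13) and 3 of 3 lower in Peyer than in Jejunum (SDHA at -0.87 ± 0.16). The tricarboxylic acid cycle had 11 of 16 lower and 1 higher between Spleen and Liver, with SUCLG2, a succinyl-CoA ligase subunit, at -2.72 ± 0.24 (adjusted p = 3.9e-10), and 6 of 16 lower and 0 higher between Peyer and Jejunum. The genes of mitochondrial DNA had 14 of 14 lower in Spleen than in Liver (ND1 at -1.19 ± 0.13) and 12 of 14 lower in Peyer than in Jejunum.

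Between Peyer and Spleen 43 of 63 nuclear members were higher and 2 lower, where 22.5% of all genes tested were higher and 33.4% lower. Of 14 mitochondrially encoded genes 1 was higher and 3 lower, both under these shares. COX3 of complex IV was lower in Peyer at -0.63 ± 0.2 (adjusted p = 0.011) and ND4 of complex I was higher at 0.62 ± 0.12 (adjusted p = 0.00018). Between Jejunum and Liver 31 nuclear members were higher and 12 lower, while 9 of 14 mitochondrially encoded genes were lower and 0 higher. Of all genes tested 31.7% were higher there and 31.5% lower. The difference between the lists was not tested, and these comparisons lie on different slides.

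The mitochondrial ribosome had 31 of 43 genes lower in Spleen than in Liver and 2 higher. Between Peyer and Jejunum 6 of its genes were lower and 3 higher, both under the shares of all genes. Genes of the mitochondrial outer membrane and of import had 4 of 12 lower and 2 higher between Spleen and Liver, with a median of -0.008. Between Peyer and Jejunum 3 of these were lower and 0 higher, with a median of -0.07. Both lower counts were near the shares of all genes. Assembly factors outside the name rule were lower in 3 of 4 for complex I and in 7 of 13 for complexes III, IV and V, with 1 higher, between Spleen and Liver. They included ACAD9, of complex I, at -2.06 ± 0.14, and SURF1, of complex IV, at -1.56 ± 0.2. The electron carriers and feeders had 1 of 11 higher there and 8 lower, led by ETFA, the electron transfer flavoprotein, at -2.72 ± 0.15. By contrast CYCS, cytochrome c, was higher in Jejunum than in Liver by 1.86 ± 0.15. Of the regulators of mitochondrial biogenesis 4 of 11 were lower in Spleen, near the share of all genes, and 2 higher, under it, and PPARGC1A, a coactivator of mitochondrial genes, stood at -4.47 ± 0.28 (adjusted p = 8.8e-13) against Liver and at -1.38 ± 0.28 (adjusted p = 0.00059) in Peyer against Jejunum. Glycolysis had 9 of 15 genes higher in Spleen than in Liver and 3 lower, with HK2, a hexokinase, at 3.76 ± 0.21, its probe well above background on 4 of 6 Liver arrays.

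**Figure D5:**
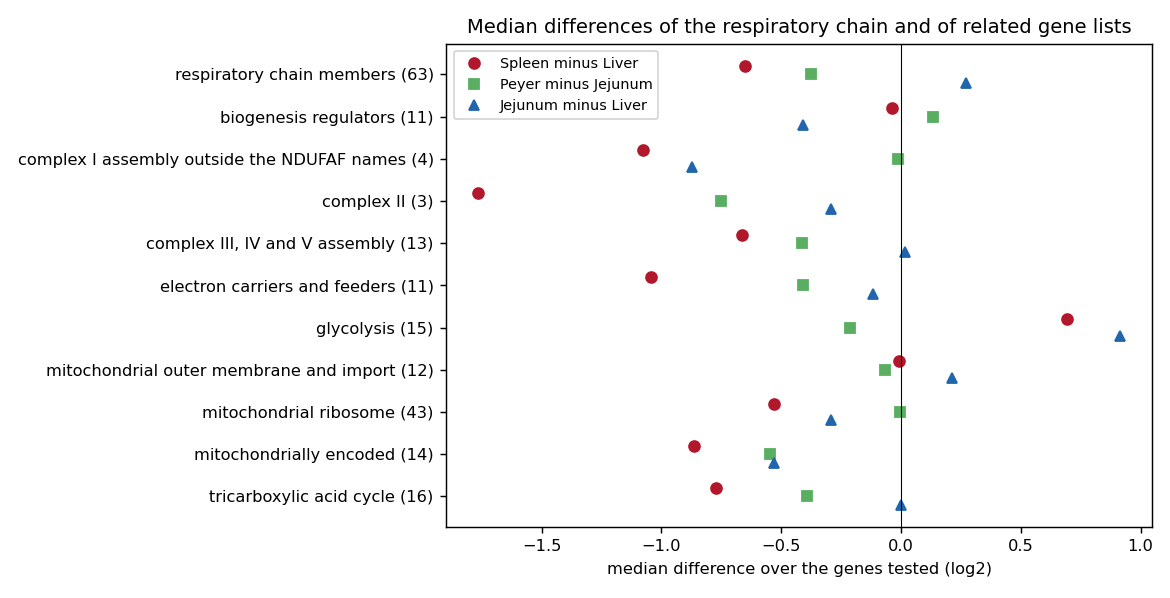
Median difference (log2) over the genes tested of the respiratory chain and of 10 related lists (number of genes in brackets) in Spleen minus Liver, Peyer minus Jejunum and Jejunum minus Liver. For Spleen minus Liver the members stand at -0.65, complex II at -1.76, the mitochondrially encoded genes at -0.86 and glycolysis at 0.69.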

How the data were processed

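Each array received cRNA made with Cy3 from 200 ng of total RNA (integrity above 7.5, per the labels). The deposited scanner files give intensity from Agilent Feature Extraction 10.10.1.1, per the submitters' processing notes. The authors' deposited table holds quantile-normalized log2 values for 44600 probes with a column median of 8.24. The notes also name limma, and the centring of the table is unknown. Its differences correlated with the scanner's at 0.956 and 0.962 within slides and at 0.322 to 0.706 between slides, and it entered as an alternative.

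Signals were taken as log2 minus the 75th percentile of each array. Probes well above background on all 6 arrays of a tissue and without outlier calls were tested (42650 of 60305), with limma 3.58.1 in R 4.3.3 and tissue as the only term. COX8H, well above background on 2 Spleen arrays, and NDUFAF1, on 1 Jejunum and 1 Peyer array, failed this filter. For NDUFB8 (Spleen or Peyer minus Liver) and ATP5J2 (Jejunum or Peyer minus Liver), probes were called in opposite directions. A probe whose accession RefSeq gives to another gene was left out of the tricarboxylic acid cycle list. The values of 1 member are not reported here, though it stays in the counts. The ATP5E, UQCRH and UQCRFS1 probes are also annotated to a near-identical copy, so their values are uncertain. The names of 10 members, among them COX4I1, COX4I2 and COX5A, were not matched to a current gene symbol.

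Each replicate number is an animal, and the samples are paired by it. Deviations from tissue means had a mean r of 0.17 over 36 pairs of arrays from 1 animal (26 over 0.1) and of -0.03 over 180 pairs from different animals. Genes with single-array values are the 2 per class with the widest range of tissue means, the isoform sets and COX5A, which was chosen after its values were seen. Genes named in a comparison are the ends of each class, and up to 3 per list by absolute difference. Members and lists were chosen with earlier results of these data known.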

Additional observations from a re-analysis of the deposited data

Results flagged for a closer look

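In 8 of the 92 groups of 6 arrays that were examined, 1 array lay far from the others by Dixon's test, which chance gives in about 1 of 20 groups. The Peyer array of animal 71 was high for ATP5G1, at 6.81 against 6.11 to 6.34, and for the mean of complex I, at 3.16 against 2.77 to 2.92. The Spleen array of animal 73 was low for the mean of all members, at 2.90 against 3.14 to 3.23, and for the mean of complex I, at 2.19 against 2.43 to 2.56. Its enterocyte markers averaged -1.48 against -5.29 to -4.33, and their part was not tested. COX6A1 was high in the Liver of animal 68, at 7.43 against 6.91 to 7.09, and COX6B1 low in the Jejunum of animal 75, at 5.81 against 6.10 to 6.16. The dim UQCRFS1 probe was low in the Liver of animal 75, at -5.12 against -4.10 to -3.51, and in the Peyer of animal 69, at -4.89 against -4.02 to -3.57.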

How the results depend on the processing

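Of 387 recomputed counts and medians 322 stayed close to the reported value, 64 moved and 1 changed sign. Where not stated, the cause was not tested. The shares of all genes were computed only for the reported scaling, so counts under another scaling have no such share beside them. Median centring gave a median of -0.20 with 4 higher and 11 lower between Peyer and Jejunum, a median of 0.80 with 0 lower between Peyer and Spleen, 19 higher between Peyer and Liver and 1 higher between Spleen and Jejunum. Quantile normalization gave -0.23 with 22 lower between Peyer and Jejunum, -0.12 with 10 higher and 22 lower between Spleen and Liver, 0.49 with 7 lower between Jejunum and Liver, 0.27 (a change of sign) with 31 higher and 9 lower between Peyer and Liver, -0.73 between Spleen and Jejunum, and Spleen lowest in 30 members and Liver highest in 7. Normexp gave 17 higher between Peyer and Liver. The authors' values gave 4 higher between Peyer and Jejunum, -0.32 with 5 higher and 33 lower between Spleen and Liver, 0.23 with 23 higher and 1 lower between Peyer and Spleen, 18 higher and 2 lower between Jejunum and Liver, 7 higher and 16 lower between Peyer and Liver, -0.55 between Spleen and Jejunum, and Liver highest in 12. Their table sets the 2 sets of slides nearly equal, with a median absolute difference of 0.056 against 0.498 in the scanner values. Members well above background on all 24 arrays had 1 higher between Peyer and Jejunum, array weights gave 4 higher there and 1 lower between Peyer and Spleen, and fitting 12 arrays gave 0 lower between Peyer and Spleen. The animal effect was called in 0 members after median centring, in the authors' values and without the Peyer array of animal 71, and in 2 after quantile normalization.

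Without the Peyer array of animal 71, 4 members were lower between Peyer and Spleen. Leaving out each animal in turn gave 1 to 2 higher between Peyer and Jejunum (1 without animal 69), 0 to 3 lower between Peyer and Spleen (0 without 68 or 75), 20 to 30 higher between Jejunum and Liver, 1 to 3 higher between Spleen and Jejunum (1 without 69 or 70) and an animal effect in 0 to 2 members. Single slides hold 4 arrays. Between Peyer and Jejunum slide 4 gave 0 higher and 0 lower, slide 5 a median of -0.23 with 0 and 0, and slide 6 gave 1 and 3. Between Spleen and Liver slide 1 gave 1 higher and 17 lower, slide 2 gave 1 and 11, and slide 3 gave 13 lower.

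With the animal as a replicate block, which the pairing warrants, 35 members were lower between Peyer and Jejunum and 50 between Spleen and Liver, and no count moved by over 1.5 times and no named member lost its call. With names in any letter case 74 genes gave 58 lower between Spleen and Liver and 45 between Peyer and Jejunum, an alternative added with the results known, as were those on the tissue order and the animal effect. Of 77 called differences of single members, 1434 recomputed values kept direction and call in 1282, lost the call in 141 and changed sign in 11. Quantile normalization turned ATP5G2 (0.29), COX6B1 (0.14) and COX7A2 (0.36) between Spleen and Liver and ATP5G2 (0.36) between Peyer and Liver. Normexp turned UQCRFS1 between Peyer and Spleen (-0.22). The authors' values turned COX7A2 between Spleen and Liver (0.021), COX4I2 (-0.050) and UQCRC2 (-0.12) between Jejunum and Liver, ATP5G2 (0.26) and NDUFA4 (0.068) between Peyer and Liver, and NDUFA4 between Spleen and Jejunum (-0.56). Signal near the background limits UQCRFS1.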
